A study of Homo sapiens with 2 samples.

Results

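LINC RNAs are long non-coding RNAs whose genes lie mostly between protein-coding genes and that the gene nomenclature committee numbers because their function was unknown or broad when they were named. They are transcribed by RNA polymerase II, are usually spliced and carry a poly(A) tail, but encode no known protein. Many are found at low levels and in few tissues, and those with a described role act on chromatin near their own gene, bind proteins or carry sites for microRNAs. The 88 genes described here are the rows of the deposited gene table whose symbol is LINC followed by 5 digits and whose counts in both libraries together were at least 100. The table holds 2118 such LINC rows among 50868 genes. Of these, 1596 LINC rows (75.4%) had 0 counts in both libraries, 434 had between 1 and 99 counts, and the 88 members were 4.15%.

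The counts come from RNA sequencing of 2 cultures labelled HepG2, a human line from a liver tumour, with 1 library per group. The parental culture was labelled WT and had no treatment. The resistant culture was labelled as resistant to sorafenib, an inhibitor of several kinases used against liver cancer, and came from the same line, selected from 2.5 µM in steps of 0.5 µM up to 7 µM, and its treatment is given as sorafenib. The labels do not say whether the resistant culture is 1 clone or many. The question is how the level of these RNAs differs between the 2 cultures. With 1 library per group no difference has a replicate check, no test was made, and every interval covers counting error only.

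The parental library had 18067146 counts and the resistant library 16811907. Levels are given as CPM, the count of a gene set against the depth of its library after TMM scaling. Where no read was counted, the limit is 3 counts, or 0.166 CPM (parental) and 0.179 CPM (resistant). The labelled cell type was not borne out by its markers: of 10 hepatocyte genes, 9 were at 0 in both libraries, ALB and AFP among them, and HNF4A had 2 counts in each. LINC RNAs known from liver were also near 0. Of 6 on that list, LINC00844, LINC00907, LINC01018 and LINC01093 had 0 counts in both libraries, LINC01554 had 5 in each and LINC01485 had 2 and 0. Markers of other cell types were mixed. KRT7, a keratin of ductal epithelia, had 34278 and 42176 counts, while KRT19 had 14 and 12, SOX9 9 and 13 and EPCAM 0. Of 7 fibroblast genes, COL1A2 and PDGFRA had 0 counts in both, COL3A1 had 3941 and 3267, COL1A1 2565 and 2611, DCN 87 and 101 and POSTN 2 and 12. LUM, with 93 and 216 counts, was at 2.51-fold (1.96 to 3.24) and past a log2 ratio of 1. PTPRC and CD3E, of leukocytes, and KDR, of endothelium, had 0 as well. The other leukocyte genes were CD68 with 98 and 156 counts, at 1.72-fold (1.33 to 2.24), and CD14 with 7 and 5. Of the other endothelial genes, CDH5 had 20 and 72 counts and was past a log2 ratio of 1. PECAM1 had 8 and 7 and VWF 5 and 0. Summed counts were 6688 and 6207 over 7 fibroblast markers, 33 and 79 over 4 endothelial markers, 105 and 161 over 4 leukocyte markers and 34301 and 42201 over 4 cholangiocyte markers. The part of such cells in the values below was not tested, and in bulk RNA fewer cells of a type and less RNA per cell cannot be told apart. The names parental and resistant therefore stand for the libraries so labelled.

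The 88 LINC RNAs took a small share of either library. Their counts summed to 24433 (parental) and 23006 (resistant), which is 0.135% (95% Wilson interval 0.134 to 0.137) and 0.137% (0.135 to 0.139) of all counts. The ratio of these sums was 1.02-fold (95% interval 0.9996 to 1.04). The 3 most counted members, LINC02582, LINC00963 and LINC00473, held 30.5% of the members' parental counts and 29.3% of their resistant counts. Without these 3 the ratio of the sums was 1.04-fold (1.01 to 1.06), and without LINC02582 alone it was 0.997-fold (0.978 to 1.02). Per length, the members were low. Their median deposited FPKM, which sets counts against gene length and library depth, was 1.92 for parental and 1.94 for resistant cells, against 4.81 and 4.78 for the 11157 protein-coding genes with at least 100 counts. Only 6 members reached 10 FPKM in either library, and 69 had at least 1 FPKM in both.

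Most members differed little between the libraries. The log2 ratio used here adds 1 CPM to each level before dividing resistant by parental. Of the 88 members, 46 had a positive and 42 a negative log2 ratio. Their median was 0.02, against -0.01 for all 12499 genes with at least 100 counts, and the middle 50% of members lay between -0.22 and 0.25, against -0.14 and 0.14. The largest log2 ratio was 2.09 and the lowest -0.98. Only 2 members lay past 1 or -1 in log2 ratio, both higher in the resistant library, which is 2.27% of members, where 2.11% of all genes with at least 100 counts and 2.3% of all 14686 genes with at least 1 CPM were past the same limit. In the higher direction alone the background was 1.22% of genes with at least 100 counts and 1.31% of genes with at least 1 CPM. In the lower direction, where no member was past the limit, it was 0.888% and 0.994%.

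The added 1 CPM weighs most on RNAs of low level, as many members are. On the plain ratio of CPM, 4 members were at least 2-fold higher and 3 at least 2-fold lower in the resistant library, 7.95% of members. The same limit was passed by 2.75% of genes with at least 100 counts, 1.54% in the higher and 1.22% in the lower direction. Over all genes with at least 1 CPM it was passed by 5.68%, with 3.25% higher and 2.43% lower. The authors' deposited table calls 4 members UP and 2 DOWN. Among genes with at least 100 counts, the authors' deposited table calls 2.62%, with 1.5% UP and 1.13% DOWN. These calls rest on the same 2 libraries. The exact interval of the fold lay above 1 for 19 members and below 1 for 16, and it held 1 for 53. It left out 1 for 45.2% of all genes with at least 100 counts (22.2% above and 23% below), whose median sum of counts was 1226, against 289.5 for members.

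**Figure D1:**
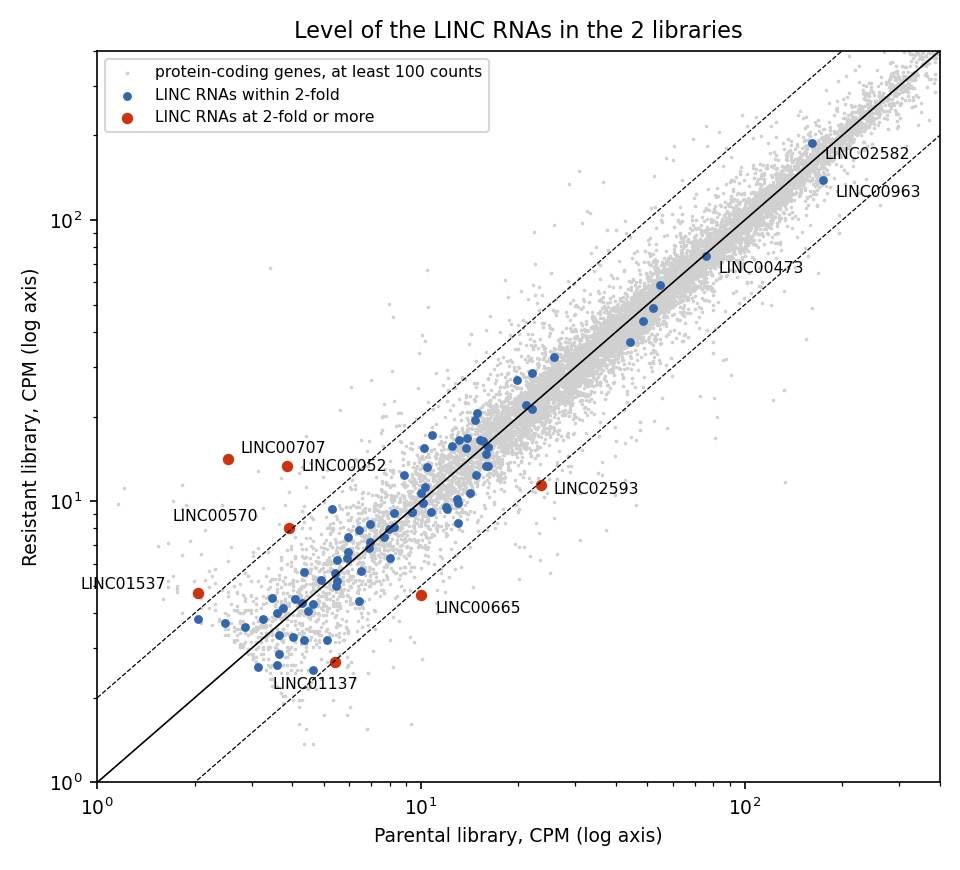
Level of each LINC RNA in the parental (x axis) and resistant (y axis) library in CPM on log axes, 1 library each. Blue points are members within 2-fold, red points the 7 members at 2-fold or more, and grey points protein-coding genes with at least 100 counts; the solid line marks equal levels and the dashed lines 2-fold. The red points have lower levels than LINC02582, LINC00963 and LINC00473, which lie within the dashed lines.

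Count level bears on such shares, so members were set beside protein-coding genes of the same counts. Among the 27 members with under 200 counts in all, 2 (7.41%) were at 2-fold or more, against 9.14% of 722 protein-coding genes. Among the 37 with at least 200 and under 500 counts, 4 (10.8%) were, against 4.41% of 1518. Among the 16 with at least 500 and under 1000 counts, 1 (6.25%) was, against 3.13% of 2112. None of the 8 members with 1000 or more counts was at 2-fold, against 1.44% of 6805 protein-coding genes. The median absolute log2 ratio was 0.23 for members and 0.26 for protein-coding genes in the lowest class, and 0.25 against 0.20, 0.24 against 0.17 and 0.19 against 0.11 in the next 3. These are descriptions of 2 libraries with few members in a class, and no difference between the kinds of gene was tested.

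**Figure D2:**
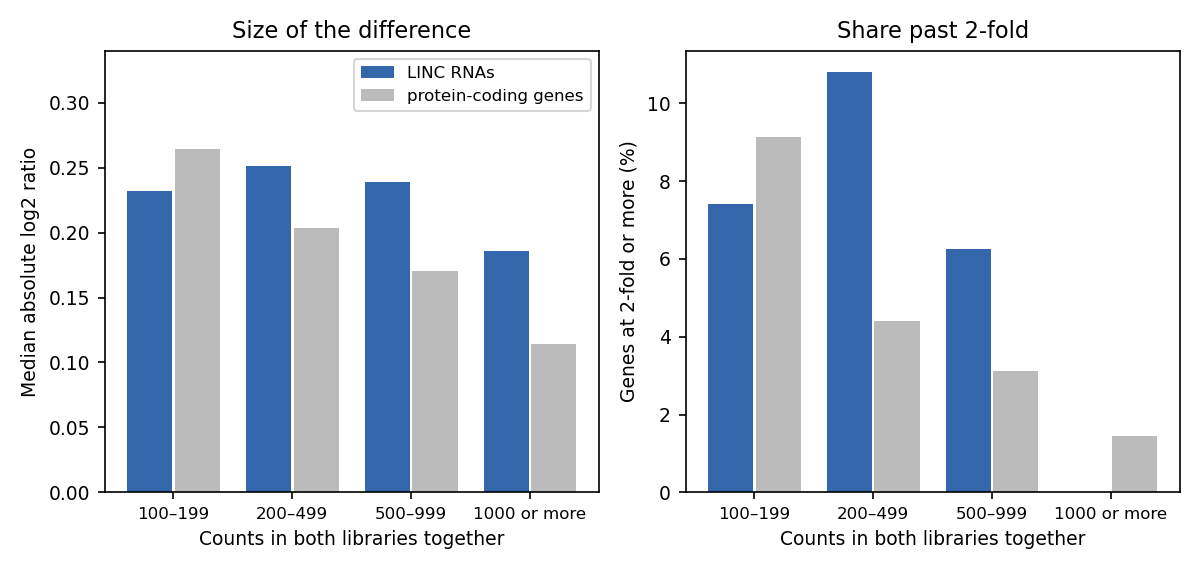
Median absolute log2 ratio (left) and percent of genes at 2-fold or more (right), resistant against parental, for LINC RNAs (blue) and protein-coding genes (grey) by the sum of counts in both libraries. Bars start at 0 and have no error bars, since each is a summary over 1 pair of libraries; the share at 2-fold for LINC RNAs is highest, 10.8%, in the class that starts at 200 counts.

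LINC00707, an RNA described in several carcinomas, had the largest difference. Its counts were 46 (parental) and 236 (resistant), or 2.54 and 14.1 CPM, and its deposited FPKM was 0.829 and 4.57. The resistant level was thus 5.55-fold the parental one (95% interval 4.03 to 7.78). The gene (ENSG00000238266) lies on chromosome 10 from 6779598 to 6842906 on the plus strand (GRCh38), and its span overlaps no other gene of the deposited table. The nearest protein-coding gene with at least 1 CPM, SFMBT2, was 315718 bases away.

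LINC00052, a 3-exon RNA described in breast and liver tumours, came next. Its 70 parental and 223 resistant counts, 3.86 and 13.3 CPM, gave 3.44-fold (2.62 to 4.57), and its FPKM was 1.97 and 6.75. The gene (ENSG00000259527) lies on chromosome 15 from 87576929 to 87579866 on the plus strand, inside the span of AC020687.1, which had 0 counts in both libraries. No protein-coding gene with at least 1 CPM lay within 879610 bases of it. LINC00707 and LINC00052 were the members past a log2 ratio of 1, at 2.09 and 1.56.

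Another pair of members was 2-fold higher on the plain ratio only. LINC01537 (ENSG00000227467; chromosome 11, 72570660 to 72573229, plus strand) had 37 and 79 counts and was at 2.31-fold (1.54 to 3.51). LINC00570 (ENSG00000224177; chromosome 2, 11393981 to 11403077, plus strand) had 71 and 135 counts and was at 2.06-fold (1.53 to 2.78). Their log2 ratios were 0.91 and 0.88.

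The 3 members at 2-fold lower levels in the resistant library had log2 ratios between -0.98 and -0.80. LINC02593 (ENSG00000223764; chromosome 1, 916865 to 921016, minus strand) had 426 parental and 191 resistant counts, 23.5 and 11.4 CPM, and was 2.06-fold lower (1.74 to 2.46). LINC00665 (ENSG00000232677; chromosome 19, 36313067 to 36331718, minus strand), an RNA described in liver cancer among other tumours, had 181 and 78 counts, 9.99 and 4.65 CPM, a 2.15-fold lower level (1.64 to 2.84). LINC01137 (ENSG00000233621; chromosome 1, 37454879 to 37474411, minus strand) stood at 98 and 45 counts, a 2.01-fold lower level (1.40 to 2.93). The intervals of all 7 members leave out 1, and those of LINC00707 and LINC00052 also leave out 2. The 7 were chosen from the same counts, at 2-fold or more and with the count minimum applied. An interval that leaves out 1 follows from that choice and is no separate check. None of the 7 shares same-strand exons with another gene.

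The labels say that mRNA was separated from total RNA and do not name how. Methods that select a poly(A) tail act on the 3′ end of an RNA, so the last 60 bases of the longest GENCODE 29 transcript are shown for 6 of these RNAs. Capitals mark a poly(A) signal, AATAAA or ATTAAA on the sense strand, within the last 50 bases.
LINC00052: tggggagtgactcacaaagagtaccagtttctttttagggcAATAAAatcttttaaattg
LINC01537: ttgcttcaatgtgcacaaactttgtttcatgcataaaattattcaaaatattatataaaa
LINC00570: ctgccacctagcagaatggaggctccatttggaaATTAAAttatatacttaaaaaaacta
LINC01137: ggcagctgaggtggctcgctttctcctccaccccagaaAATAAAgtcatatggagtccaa
LINC00665: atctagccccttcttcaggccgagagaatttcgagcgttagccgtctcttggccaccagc
LINC02593: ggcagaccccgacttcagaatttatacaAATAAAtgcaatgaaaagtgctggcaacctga
Of these ends 4 hold a signal, those of LINC00052 and LINC00570 among the higher RNAs and those of LINC01137 and LINC02593 among the lower ones. Among 87 members with a GENCODE 29 transcript, 60 (69.0%) had one, against 77.3% of 11153 protein-coding genes with at least 100 counts and 53.7% of 1578 LINC genes with 0 counts in both libraries. The longest annotated transcript need not be the one made in these cells, and a match is a description of letters only.

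RefSeq promoter windows (GRCh38.p14, 250 bases before to 50 bases after the start) were found for 57 of the 88 members, and for LINC01537, LINC00665 and LINC02593 among the 7. They are shown as the start regions of 1 RNA at a higher and 2 at a lower level in the resistant library, with capitals for any match, on either strand, to AP-1 TGANTCA, TEAD GGAATG, a short CRE site TGACG, an E-box CACGTG, an NRF2 element TGACNNNGC or a TATA box TATAAA.
LINC01537, chr11:72570406-72570705, plus strand: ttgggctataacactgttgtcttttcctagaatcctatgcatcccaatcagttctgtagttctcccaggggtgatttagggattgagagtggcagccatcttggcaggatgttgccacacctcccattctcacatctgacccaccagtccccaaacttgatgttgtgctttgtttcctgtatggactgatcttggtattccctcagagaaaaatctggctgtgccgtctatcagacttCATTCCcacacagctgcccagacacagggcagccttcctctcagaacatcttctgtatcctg
LINC00665, chr19:36331669-36331968, minus strand: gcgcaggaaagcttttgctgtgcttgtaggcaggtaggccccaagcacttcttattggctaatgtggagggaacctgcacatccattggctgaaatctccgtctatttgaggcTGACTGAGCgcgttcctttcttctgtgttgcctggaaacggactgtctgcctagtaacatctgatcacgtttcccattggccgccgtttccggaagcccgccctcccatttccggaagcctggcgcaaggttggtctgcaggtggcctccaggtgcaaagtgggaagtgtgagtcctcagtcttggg
LINC02593, chr1:919643-919942, minus strand: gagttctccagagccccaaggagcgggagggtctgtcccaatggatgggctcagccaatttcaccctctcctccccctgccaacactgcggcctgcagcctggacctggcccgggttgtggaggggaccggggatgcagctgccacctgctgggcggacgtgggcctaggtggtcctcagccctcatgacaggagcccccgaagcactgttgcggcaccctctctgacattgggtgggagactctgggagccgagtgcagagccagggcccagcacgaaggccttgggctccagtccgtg
The window of LINC01537 has 1 match, to the TEAD letters on the opposite strand, that of LINC00665 has 1, to the NRF2 letters, and that of LINC02593 has none. The window of LINC02593 lies inside the span the deposited table gives, since RefSeq places the start of the gene elsewhere. Over the 57 windows, the AP-1 letters were in 8.77% of members and 7.71% of all 35116 windows, the TEAD letters in 14.0% and 14.0%, the short CRE site in 22.8% and 24.6%, the E-box in 5.26% and 7.26% and the TATA box in 12.3% and 11.5%. The NRF2 letters were in 15 windows, 26.3%, against 13.3% of all windows. The AP-1, CRE and NRF2 letters can overlap, since all start from TGA. The share of G and C in the members' windows had a median of 59.3%, against 58.7% in all windows, and ranged from 35.3% to 81.0%. LINC01537 was at 48.7%, LINC00665 at 55.3% and LINC02593 at 66.7%.

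LINC RNAs can act on, or share a start region with, the gene next to them, so each member was set beside the nearest protein-coding gene with at least 1 CPM. Such a gene lay within 50 kb for 57 members, and in 10 cases the spans overlapped. The log2 ratios had the same sign in 29 of the 57 pairs (50.9%), and in 51.1% of 9255 protein-coding genes set beside their own nearest neighbour. Pearson's r of the log2 ratios over the 57 pairs, which share their libraries and in 1 case a neighbour, was 0.33. No r was computed for protein-coding genes and their neighbours, so this value has no background. In 2 of the 57 pairs the neighbour was past a log2 ratio of 1, as were 2.3% of all genes with at least 1 CPM.

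Some of the members with large differences did have a neighbour that differed the same way. SAMD11, whose span starts 3.86 kb from LINC02593 on the opposite strand, had 1898 and 922 counts and was at 0.525-fold (0.485 to 0.568), beside 0.485-fold (0.406 to 0.576) for LINC02593. The genes beyond it were mixed. NOC2L, 23.2 kb away, was at 0.993-fold (0.946 to 1.04), KLHL17 at 0.972-fold (0.823 to 1.15) and ISG15, an interferon-induced gene 80.1 kb away, at 0.983-fold (0.838 to 1.15). PLEKHN1, 45.5 kb away, was at 0.518-fold (0.301 to 0.868) with 48 and 23 counts, close to the fold of LINC02593 and SAMD11. HES4, 77.9 kb away, was at 0.932-fold (0.772 to 1.12). AGRN, 99.1 kb away, was higher in the resistant library, at 1.27-fold (1.21 to 1.33) with 3686 and 4325 counts.

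LINC00665 lies among zinc finger genes of chromosome 19. ZFP14, 2735 bases away on the same strand, had 76 and 33 counts and was at 0.469-fold (0.302 to 0.715), beside 0.466-fold (0.353 to 0.611) for LINC00665. ZNF565, 66.8 kb away, had 49 and 30 counts and was at 0.662-fold (0.406 to 1.06), and ZNF146, 74.3 kb away, was at 0.953-fold (0.909 to 0.998). PDE2A, a cyclic nucleotide phosphodiesterase gene 2.91 kb from LINC01537, had 2 and 21 counts and was at 11.4-fold (2.77 to 99.9), an estimate that rests on very few parental counts. Reads that run past the end of a gene into its neighbour cannot be told apart here, and their part in these values was not tested.

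Other close neighbours differed less than the RNA, or in the other direction. LINC01137 starts 141 bases from the start of ZC3H12A, a ribonuclease gene that limits inflammatory mRNAs, on the opposite strand. ZC3H12A had 120 and 101 counts and was at 0.910-fold (0.691 to 1.20), beside 0.496-fold (0.341 to 0.713) for LINC01137, and these intervals overlap. For E2F6, 41.3 kb from LINC00570, the value was 0.916-fold (0.797 to 1.05). LINC00920 was at 0.917-fold with 66 and 56 counts, while CDH5, an endothelial cadherin gene 3738 bases away, had 20 and 72 counts and was at 3.89-fold (2.34 to 6.74). LINC01578, also known as CHASERR and known to restrain CHD2, the chromatin remodeller gene beside it, had 802 and 618 counts and was at 0.833-fold (0.749 to 0.926). CHD2 had 2304 and 2224 counts and was at 1.04-fold (0.984 to 1.11). Starts within 2 kb of each other on opposite strands were found for 8 members and their coding neighbour, and 6 of these pairs had the same sign. The share for pairs of protein-coding genes so placed was not computed, so 6 of 8 has no background. The spans overlap in 3 of the 8 pairs, and 3 of the 5 pairs with spans apart had the same sign.

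**Figure D3:**
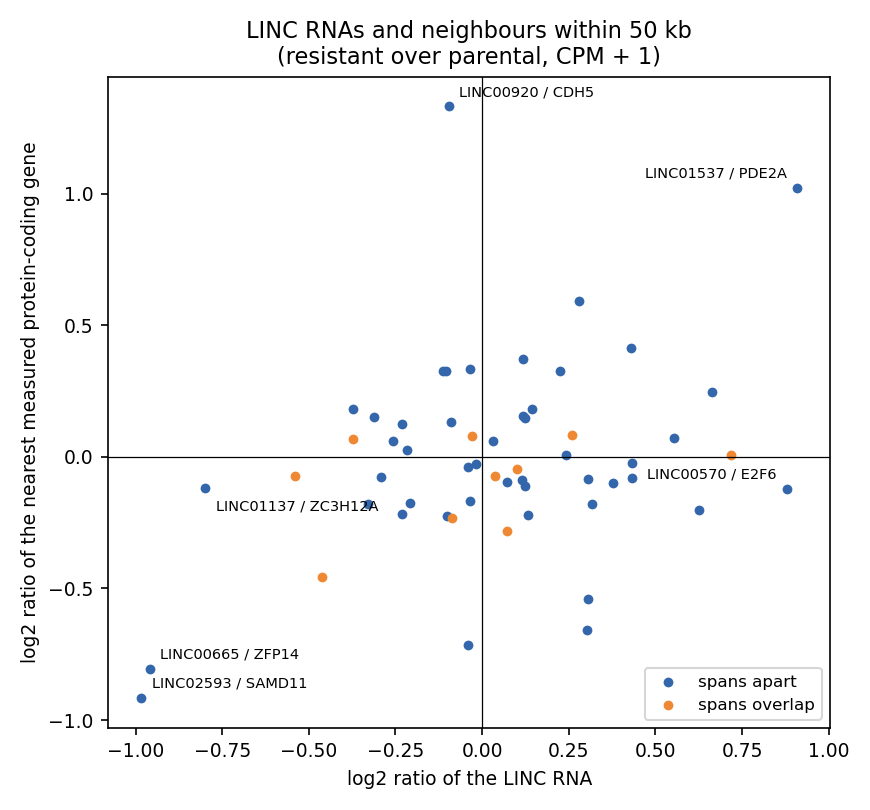
Log2 ratio (resistant over parental, CPM + 1) of each LINC RNA (x axis) and of its nearest protein-coding gene within 50 kb that had at least 1 CPM (y axis), for 57 pairs. Orange points are pairs whose spans overlap; LINC02593 with SAMD11 and LINC00665 with ZFP14 lie at the lower left, and most other pairs lie around 0 on both axes.

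The abundant members set the level of the group. LINC02582 (ENSG00000261780; chromosome 18, 73324941 to 73349878) had the highest level per length, at 57.9 FPKM in the parental and 67.3 FPKM in the resistant library. It had 2920 and 3160 counts and was at 1.17-fold (1.11 to 1.23). LINC00963 (ENSG00000204054; chromosome 9, 129483451 to 129513683), described in prostate cancer, had 3160 and 2328 counts and was at 0.796-fold (0.755 to 0.840). Its longest transcript has 9557 bases, and its FPKM was 8.59 and 6.80.

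LINC00473, a primate-specific RNA that CREB signalling induces in many cells, had 1377 and 1247 counts, 76.0 and 74.4 CPM. It was at 0.979-fold (0.906 to 1.06), so a 1.5-fold difference lies outside its counting interval. PDE10A, the gene whose span overlaps it on the same strand, had 314 and 308 counts and was at 1.06-fold (0.903 to 1.24). Whether the 2 genes share exons could not be checked. LINC00294 had 989 and 983 counts and was at 1.07-fold (0.983 to 1.17). LINC01278 had 940 and 817 counts and was at 0.940-fold (0.854 to 1.03). For LINC02693, an entry that GENCODE 29 lists as protein-coding, the counts were 880 and 734 and the value 0.902-fold (0.816 to 0.996). LINC01123 with 468 and 545 counts was at 1.26-fold (1.11 to 1.43), LINC01145 with 400 and 478 at 1.29-fold (1.13 to 1.48) and LINC01429 with 358 and 452 at 1.36-fold (1.19 to 1.57). The values of LINC01123 and LINC01145 are uncertain, since near-identical copies of their longest transcripts lie elsewhere in the genome.

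**Figure D4:**
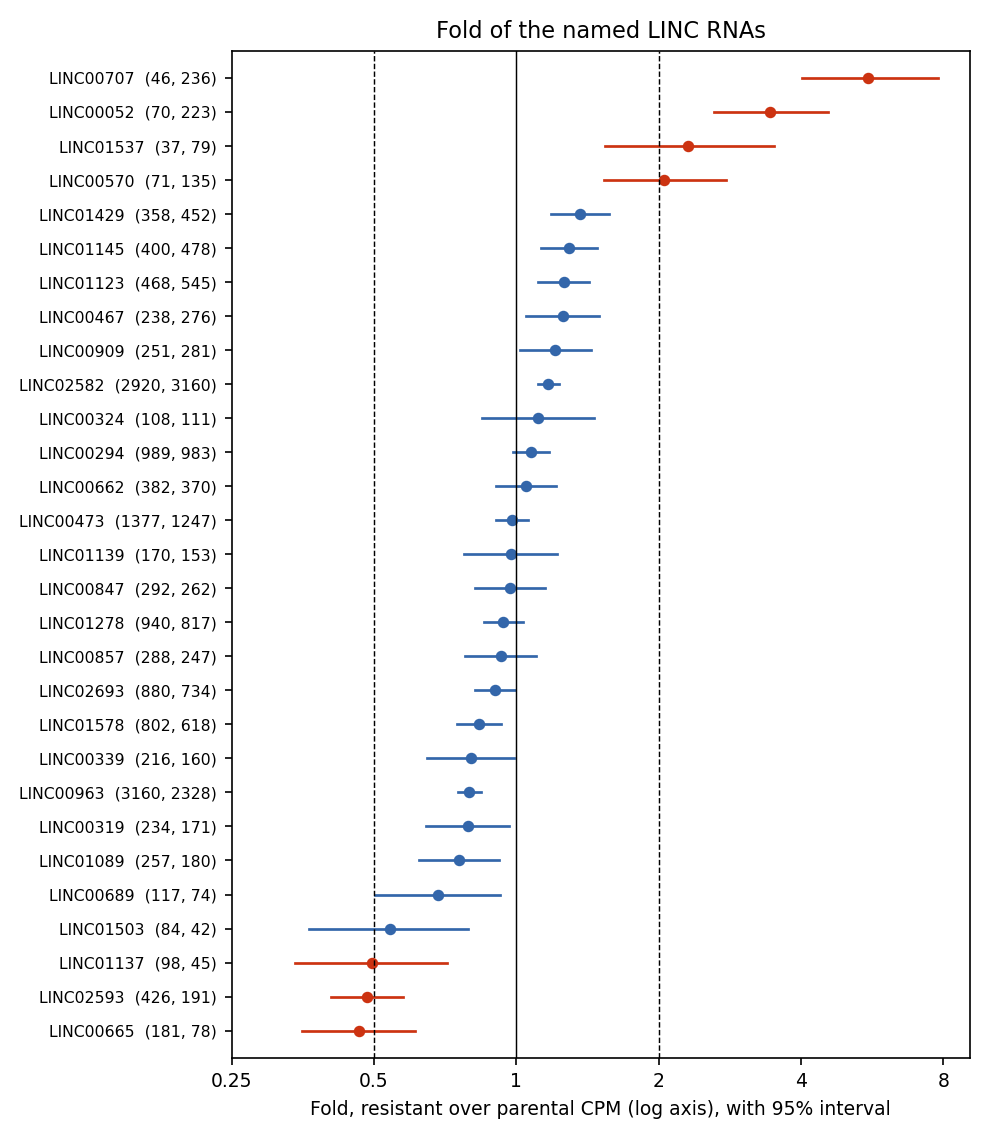
Fold of the named LINC RNAs, resistant over parental CPM on a log axis, with the exact 95% interval of the count ratio as a line; parental and resistant counts stand in parentheses. Red marks members at 2-fold or more, the solid line 1 and the dashed lines 2-fold; LINC00707 at 5.55-fold and LINC00665 at 0.466-fold are the ends of the range.

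Of 39 LINC RNAs listed as described in cancer, 34 had a row under the listed symbol and 17 were members. The other 5, LINC00657 among them, were not looked up under other symbols. Among these 17, LINC00707 alone was past a log2 ratio of 1, 5 had a positive and 12 a negative log2 ratio, and the median was -0.09. Of all 12499 genes with at least 100 counts, 2.11% were past the limit, 6112 had a positive and 6387 a negative log2 ratio, and the median was -0.01. The list was drawn up with earlier results of these data known. It is not complete, since LINC00052, given above as described in tumours, is not on it. LINC01503, known from squamous carcinomas, had 84 and 42 counts and was at 0.540-fold (0.364 to 0.792). LINC01089, which was described in breast epithelium as an RNA that epidermal growth factor lowers and that limits metastasis, had 257 and 180 counts and was at 0.757-fold (0.622 to 0.920). LINC01089 shares exons with RHOF, which had 2300 and 2232 counts, and the summed locus had a log2 ratio of 0.03. LINC00689 had 117 and 74 counts and was at 0.684-fold (0.504 to 0.923). VIPR2, whose span overlaps it, had 595 and 397 counts and was at 0.721-fold (0.634 to 0.820).

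The other listed members lay closer to 1. LINC00339 was at 0.801-fold (0.649 to 0.987) with 216 and 160 counts, and LINC00319 at 0.790-fold (0.645 to 0.966) with 234 and 171. LINC00467 was at 1.25-fold (1.05 to 1.497) with 238 and 276 counts, and LINC00909 at 1.21-fold (1.02 to 1.44) with 251 and 281. The intervals of LINC00324, LINC00662, LINC00847, LINC00857 and LINC01139 held 1, with folds between 0.927 and 1.11. LINC01139, also known as LINK-A, an RNA that acts in growth factor and hypoxia signalling, had 170 and 153 counts. Several listed RNAs were below the count minimum. LINC00941 had 6 and 23 counts and was at 4.14-fold (1.64 to 12.4), and LINC01234 had 14 and 31 counts and was at 2.39-fold (1.24 to 4.87). LINC00511 had 8 and 10 counts, LINC00460 0 and 5, and LINC01133 2 in each library. LINC00261, a neighbour of the hepatocyte factor gene FOXA2, had 0 counts in both, as had FOXA2.

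With LINC01503, a further 7 members lay between 1.5-fold and 2-fold, and the names here were chosen after their values were seen. Higher in the resistant library were LINC02481 at 1.87-fold (1.23 to 2.88), LINC00476 at 1.77-fold (1.36 to 2.30), LINC01836 at 1.59-fold (1.32 to 1.92) and LINC00667 at 1.51-fold (1.25 to 1.84). Lower were LINC00894 at 0.628-fold (0.440 to 0.887), LINC01484 at 0.641-fold (0.516 to 0.794) and LINC01503. In all, 8 members were at least 1.5-fold higher and 6 at least 1.5-fold lower on the plain ratio. Of all genes with at least 100 counts, 8.51% were past this limit, 4.59% higher and 3.92% lower. LINC02481 lies 2550 bases from S100P, a calcium-binding protein gene, which had 2818 and 3093 counts and was at 1.19-fold (1.13 to 1.25). LINC00476 overlaps ERCC6L2, a helicase gene on the opposite strand, which was at 1.01-fold (0.885 to 1.14).

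Members differed widely in structure. Their spans ran from 824 to 454138 bases with a median of 16919. In 87 members found in GENCODE 29, the longest transcript had 685 to 9678 bases with a median of 2480, and 1 to 15 exons with a median of 3. The 17 members whose longest transcript has 1 exon had a median log2 ratio of 0.03, the 48 with 2 to 4 exons 0.04 and the 22 with 5 or more exons -0.03. They lay on 21 autosomes and the X chromosome, with 14 on chromosome 1 and 7 on chromosome 7. The 6 positive log2 ratios among those 7 on chromosome 7 ran up to 0.31.

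Exon sharing and copies limit some single values. Exons on the same strand are shared with another gene by 10 members, none of them at 2-fold. Among the abundant ones, LINC01578 shares exons with AC013394.1, which had 10 and 11 counts. Of the same 87, 20 have exons on the strand opposite to exons of another gene with counts. The longest transcript of 9 members is covered for at least 50% by transcripts of genes elsewhere at 98% identity or more. These are LINC01145, LINC00623, LINC00869 and LINC01409 of chromosome 1, LINC01123, LINC01106 and LINC01881 of chromosome 2, LINC00319 of chromosome 21 and LINC00894 of chromosome X. These 9 had log2 ratios between -0.54 and 0.36. LINC01123 and LINC01106, which resemble each other, were at 0.32 and 0.25.

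Members that lie close together on a chromosome did not share a direction throughout. LINC01409, LINC01128 and LINC02593 lie in a row at the start of chromosome 1, with gaps of 15.1 and 57.4 kb, and had log2 ratios of 0.01, -0.23 and -0.98. LINC01273 and LINC01270 on chromosome 20, with a gap of 116 kb, had 0.43 and -0.25. LINC01503 and LINC00963 on chromosome 9, with a gap of 124 kb, had -0.68 and -0.33.

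Other non-coding classes with at least 100 counts gave a background of the same kind. Of 162 RNAs named as antisense to a gene, 1 (0.617%) was past a log2 ratio of 1 and 6 (3.70%) were at 2-fold on the plain ratio. Of 368 other long non-coding genes, 12 (3.26%) and 21 (5.71%) were. None of 22 divergent-transcript RNAs or 21 MIR host genes was past either limit, and 1 of 20 SNHG genes, hosts of small nucleolar RNAs, was past both. Well-known long non-coding RNAs that are no LINC members lay within the limit. NEAT1, of nuclear paraspeckles, had 40700 and 37603 counts and was at 0.999-fold (0.985 to 1.01). MALAT1, of nuclear speckles, had 18708 and 11840 counts and was at 0.684-fold (0.669 to 0.700). GAS5 was at 1.22-fold (1.17 to 1.27), NORAD at 0.984-fold (0.956 to 1.01), TUG1 at 0.864-fold (0.822 to 0.909), OIP5-AS1 at 0.897-fold (0.857 to 0.940) and CYTOR at 1.27-fold (1.06 to 1.52). KCNQ1OT1 had 1 and 0 counts.

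The count minimum also removed RNAs with large plain ratios. Just inside it were LINC01315 with 57 and 43 counts, LINC02481 with 37 and 64 and LINC01273 with 45 and 62. Just outside were LINC02861 with 34 and 65 counts, at 2.07-fold (1.34 to 3.23), LINC00115 with 63 and 33 and LINC00235 with 51 and 42. Below the minimum, 71 LINC RNAs still had at least 1 CPM in a library, and LINC01910, with 9 and 36 counts and a log2 ratio of 1.07, was the 1 among them past 1. On the plain ratio 11 of these 71 were at least 2-fold higher and 3 at least 2-fold lower (19.7%), at counts where the intervals are wide. Of all 14686 genes with at least 1 CPM, 834 were at 2-fold, but only 344 of the 12499 with at least 100 counts were. Most of the 834 thus lay under the same minimum. Past a log2 ratio of 1 the numbers were 338 and 264. A member that is low in 1 library could enter through the other alone: 9 members had under 50 counts in 1 library only, LINC00707, LINC01537 and LINC01137 among them, and none had under 50 in both.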

How the data were processed

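Per the file headers, the authors deposited whole-number counts per gene and library, not normalized, for 1 parental and 1 resistant library, and FPKM of the same genes. The authors' log2 fold change, p-value and q-value come, per the file headers, from another of their tables; they compare 1 library with 1 and were not used as evidence. Per the submitters' processing notes, bcl2fastq 2.19, HISAT2 2.0.4 and StringTie 1.3.0 were used on GRCh38. For annotation release, counting settings and strand use: not given in the sources used here.

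Counts were scaled to CPM with TMM factors (edgeR 4.0.16, R 4.3.3), with no model fitted. The log2 ratio used a pseudocount of 1 CPM, which understates differences of low genes. Folds are plain CPM ratios with exact Clopper-Pearson 95% intervals of the count ratio given the sum. PCR copies are not independent molecules, so intervals and the 3-count floor cover counting error only. Genes were counted as measured at 1 CPM or more in either library. Exons and gene types came from GENCODE 29, matched by identifier for 50111 genes, with bedtools 2.31.1; near-identical copies from blastn 2.17.0. Member coordinates equalled GENCODE 29 for 76 of 88. Calculations were tested on simulated data.

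Named are members past a log2 ratio of 1, the 10 most counted, those on the 2 lists, those beside the count minimum, the nearest measured coding gene of members past 1 and reference RNAs; all other names, neighbours included, were chosen after their values were seen. Members and lists were chosen with earlier results of these data known. Alternatives covered scaling, pseudocount, size limit, count minimum, overlaps and copies. Some items are not reported here.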

Additional observations from a re-analysis of the deposited data

How the results depend on the processing

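The number of members past the limit depends on the pseudocount and the limit, since most members are low. The main values were 2 higher, 0 lower and 2.27%. With DESeq2 size factors 2 members were higher and 1 lower (3.41%), with a pseudocount of 0.25 CPM 3 were higher and 2 lower (5.68%), and without a pseudocount 4 were higher and 3 lower (7.95%). With a limit of 1.5-fold 7 were higher and 4 lower (12.5%), and with 3-fold 1 was higher and 0 lower (1.14%). Without members whose span overlaps another gene 1 was higher, and the ratio of the summed counts was 1.08, against 1.02 in all and 0.997 without the most counted member. Of the 14686 measured genes, 338 (2.3%) were past the limit, 340 (2.32%) with DESeq2 size factors, 647 (4.41%; 372 higher, 275 lower) at 0.25 CPM, 834 (5.68%; 477 higher, 357 lower) without a pseudocount, 1270 (8.65%; 711 higher, 559 lower) at 1.5-fold and 86 (0.586%; 50 higher, 36 lower) at 3-fold. With deposited FPKM, where 1 FPKM was added before dividing, 146 were (0.994%; 75 higher, 71 lower). Of the members, 2 were then higher and 0 lower (2.27%). The median of members lay within its binomial interval, -0.04 to 0.12, under all alternatives run. Of 200 log2 ratios of 25 named members over 8 alternatives, 4 moved beyond the counting interval. LINC01537, LINC00570, LINC01137 and LINC02593, also at 2-fold or more, were not among the 25, and their values were not checked this way. The alternatives of 1.5-fold and 3-fold change only the limit, so they could not move a log2 ratio. Summing over shared exons could move only members that share exons. With deposited FPKM plus 1 FPKM, LINC00707 (1.61), LINC00052 (1.38) and LINC00665 (-0.43) moved. The other was LINC01089 summed with RHOF (0.03). The added 1 FPKM is large beside the FPKM of LINC00665, 0.922 and 0.427, and of LINC00707, 0.829 and 4.57. None of the members past 1 changed sign. Leaving out members with near-identical copies was chosen after seeing the data and left 2 higher and 0 lower. No paired analysis was possible because each group has 1 library. Depth limits the rest: at 100 counts in all, the interval of a fold spans more than 2-fold from end to end.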
